A study of Homo sapiens
Mus musculus and Homo sapiens and Mus musculus with 7 samples.

Results

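Mouse RNA of NIH3T3 cells grown together with human HEK293 cells was compared with mouse RNA of NIH3T3 cells grown alone. The comparison used 2 of the 7 libraries of the series, 1 made from whole co-culture RNA (the input) and 1 from whole RNA of the NIH3T3 monoculture. Its members were the 54752 mouse genes among 113473 genes of both species, taken by the species prefix of their chromosome names. NIH3T3 is a mouse embryonic fibroblast line and HEK293 a human embryonic kidney line. In the co-culture RPL22, a protein of the large ribosomal subunit, carried an HA tag in HEK293 cells and a V5 tag in NIH3T3 cells. For the monoculture, the presence of a tag is not stated. The other libraries were a HEK293 monoculture, and a first and a second immunoprecipitate (IP) from the co-culture with each of the antibodies against HA and V5. The labels give both first IPs the same lysate number and each second IP another, give first and second as the order of the IP, and name no lysate for the input. Each group of the comparison was 1 library, so no difference has a replicate check and no p-value is given.

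Tagging a ribosomal protein in 1 cell type lets an antibody pull down the ribosomes of that type with the RNA bound to them, out of a mixed lysate. An input library is made without that step, and here its RNA comes from both lines. Fibroblasts make collagens and other matrix proteins, and in mixed culture they meet the secreted factors and the surfaces of another cell type. A monoculture of the same line is the reference for what its genes do without that company. The sources used here do not pair mouse identifiers with gene symbols, so genes are given by identifier, and the fibroblast markers of NIH3T3 could not be looked up.

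Levels are given as CPM, counts per 1000000 mouse counts of the library, so that the human share of the co-culture drops out. The input held 1039864 counts, of which 759701 (73.1%; exact Clopper-Pearson 95% interval 73.0 to 73.1%) lay on mouse genes. The NIH3T3 library held 1998567 mouse counts and 511 human counts. In bulk RNA the mouse share cannot tell apart the number of mouse cells and the RNA in each of them. The first V5 IP had 1934970 mouse counts and the second 1744329, while the HA IPs had 158572 (first) and 350176 (second). In a library, 3 counts, taken as the most that a count of 0 allows, were worth 3.95 CPM in the input and 1.5 CPM in NIH3T3. Without molecular identifiers, every interval here covers counting error and nothing else.

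Most mouse genes were silent or very low in both libraries. Of the 54752 genes, 40373 had 0 counts in both, 9713 had counts in both, 689 had counts only in the input and 3977 only in NIH3T3. No gene seen in only 1 library was abundant there, with at most 11 counts in the input and at most 74 in NIH3T3. The input had counts on 10402 genes, against 13690 in NIH3T3 as deposited and 11649 after random thinning of NIH3T3 to the mouse depth of the input. The comparison was made on the 2475 genes at 50 CPM or more in either library, which is about 38 counts in the input and 99.9 in NIH3T3. These genes held 93.4% of the mouse counts of the input and 91.5% of those of NIH3T3, and 11904 further genes with counts were under that level.

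Across these 2475 genes the libraries ranked genes alike, but 26.9% of the genes lay 2-fold or further apart. Pearson's r of log2 CPM was 0.837 and Spearman's rho 0.776, across genes of 2 libraries, which are not independent replicates. The log2 ratio of the input over NIH3T3, with 2 counts added to damp low values, had a median of −0.16 and middle 50% of genes between −0.81 and 0.43. At 2-fold or more, 162 genes were higher in the input (6.55% of genes) and 504 were lower (20.4%), 666 in all (26.9%). With libraries scaled by edgeR's TMM factors, which set the median ratio near 0, the split was 265 higher and 412 lower, so the excess of lower genes depends in part on the scaling. The filter also admits genes through 1 library alone. In the input 1977 genes reached 50 CPM and in NIH3T3 2250, so more genes entered only through NIH3T3, where they were high. With 50 CPM required of the mean of both libraries, 121 genes were higher and 360 lower, of 2141. The 162 higher genes took 5.48% of the mouse counts of the input and 2.22% of those of NIH3T3, and the 504 lower genes took 4.82% and 13.9%. For 66 of the higher and 258 of the lower genes, the 95% counting interval of the ratio lay wholly beyond 2-fold, which speaks of these libraries and not of the conditions.

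**Figure D1:**
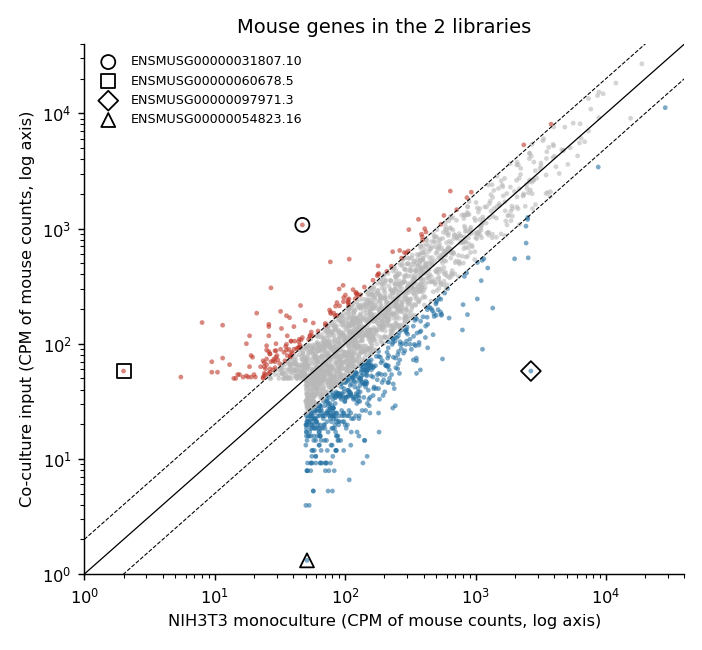
Level of each of the 2475 mouse genes in the NIH3T3 monoculture (x axis) and the co-culture input (y axis), in CPM of mouse counts on log axes, 1 point per gene. The solid line marks equal levels and the dashed lines 2-fold; the 162 genes at least 2-fold higher in the input are red, the 504 at least 2-fold lower are blue, and the 4 named genes are outlined.

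The first and second IPs with each antibody were compared under the same rule; they differ in IP order and lysate and may not be plain repeats. Between the first and second V5 IPs, which carry mouse RNA bound to tagged ribosomes, 94 of 2380 mouse genes were at least 2-fold higher in the first (3.95%) and 24 were lower (1.01%), 4.96% in all. Mouse RNA in the HA IPs, where it is off target and shallow, differed 2-fold in 36.8% of 3156 genes (26.6% higher and 10.2% lower in the first). Among human genes of the same input library, 460 of 2558 were at least 2-fold higher (18%) and 914 lower (35.7%) than in the HEK293 monoculture, 53.7% in all. Depth differs between these pairs, so every library was also thinned to 158572 counts and genes were kept at 200 CPM. The share past 2-fold was then 21.4% for the input against NIH3T3, 3.43% for the V5 pair, 18.5% for mouse RNA of the HA pair and 47.7% for human genes of the input. At equal depth mouse RNA of the input thus differed from its monoculture in more genes than the V5 IPs differed from each other. The HA pair came close to it (18.5%), and human RNA of the input differed from HEK293 in more genes still. Before thinning, at 50 CPM, the HA pair differed in more genes (36.8%) than the input and NIH3T3 did (26.9%).

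**Figure D2:**
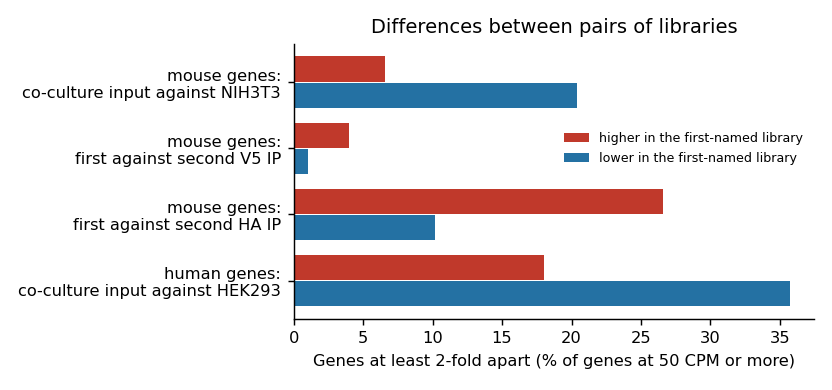
Share of genes at least 2-fold higher (red) or lower (blue) in the first-named library of each pair, in percent of the genes at 50 CPM or more in either library; each bar compares 1 library with 1. The input against NIH3T3 (26.9% in both directions together) lies above the V5 pair (4.96%). It lies below mouse genes of the HA pair (36.8%) and human genes of the input (53.7%).

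The gene with the largest damped log2 ratio upward, 4.47, was ENSMUSG00000031807.10, on chromosome 8 (71592176 to 71601092, plus strand; mouse coordinates as the files give them, build not stated), with 3770 exonic bases in 8 separate exon blocks. It had 817 counts (1075 CPM) in the input and 94 counts (47.0 CPM) in NIH3T3. That is a ratio of 22.9 (18.5 to 28.6). In the other co-culture libraries it was at 1608 CPM in the first V5 IP and 82 CPM in the second, and at 1703 CPM in the first HA IP and 114 CPM in the second. The input and both first IPs were thus high, and NIH3T3 and both second IPs were low. Between the V5 IPs alone the ratio was 19.6 (16.6 to 23.4). Exons of an overlapping gene on the same strand cover 20.6% of its exonic bases, so its counts are uncertain, although that neighbour had only 2 counts in the input and 2 in NIH3T3.

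ENSMUSG00000060678.5 followed with a damped log2 ratio of 4.10, a gene of 820 bases in a single exon on chromosome 13 (23697635 to 23698454, minus strand), with no exonic overlap. It had 44 counts (57.9 CPM) in the input and 4 counts (2.0 CPM) in NIH3T3, a ratio of 28.9 (10.5 to 111). Here NIH3T3 was the low library: the gene was at 126 and 86.6 CPM in the first and second V5 IPs and at 50.5 and 74.2 CPM in the HA IPs, on 8 and 26 counts. Within 100000 bases of it, 2 of 4 further genes of the comparison were also at least 2-fold higher in the input and none was lower, and 3 of the 4 had a single exon. A wider window of 3 Mb on either side was looked at after these values were seen. Besides the named gene it held 8 single-exon genes, of which 5 were at least 2-fold higher and none lower, with a median log2 ratio of 1.32. Over all genes the share higher was 6.55%, and over nuclear genes of 1 exon block it was 11.5% (24 of 209). The summed level of the 8 genes was 4181 CPM in the input and 2511 CPM in NIH3T3. In the V5 IPs their sum was 2858 and 2560 CPM, and in the HA IPs 1766 and 2410 CPM, so the input was the highest of the 6 libraries. The 8 single-exon genes of chromosome 13 outside the window had a median of −0.20, and none of them was 2-fold higher.

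Downward, ENSMUSG00000097971.3 on chromosome 17 (39843013 to 39846341, plus strand) had the largest damped log2 ratio, −5.49, with 3329 exonic bases in 1 exon block. It had 44 counts (57.9 CPM) in the input and 5313 counts (2658 CPM) in NIH3T3, and was 45.9-fold lower in the input (34.1 to 63.2). NIH3T3 was the only library in which it was abundant. It was at 12.4 and 9.75 CPM in the V5 IPs and at 75.7 and 77.1 CPM in the HA IPs, which are the off-target libraries for mouse RNA. The input level lay between those of the V5 and HA IPs.

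ENSMUSG00000054823.16 on chromosome 8 (25601601 to 25719667, plus strand) spans 118067 bases, with 16513 exonic bases in 27 exon blocks, and had a damped log2 ratio of −4.25. It had 1 count in the input (1.32 CPM) and 102 counts in NIH3T3 (51.0 CPM), 38.8-fold lower in the input (6.80 to 1546). The V5 IPs were between these, at 17.1 and 22.4 CPM, and the HA IPs at 12.6 and 8.57 CPM on 2 and 3 counts. With a single count in the input, the size of the difference is poorly known. None of the 4 named genes had a count in the HEK293 monoculture, where human RNA could have been placed on a mouse gene.

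**Figure D3:**
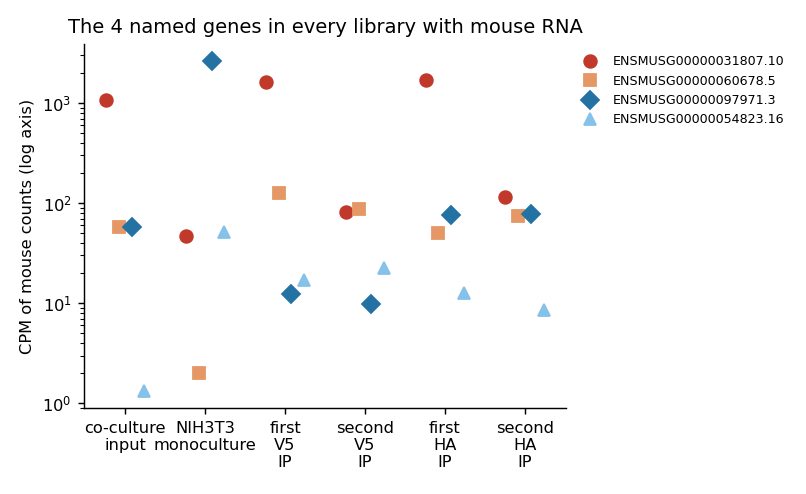
Level of the 4 named genes, 2 per direction, in the 6 libraries with mouse RNA, in CPM of mouse counts on a log axis, 1 point per gene and library, with points shifted sideways for legibility. ENSMUSG00000031807.10 is above 1000 CPM in the input and both first IPs and at 47.0 to 114 CPM elsewhere, and ENSMUSG00000097971.3 is above 1000 CPM only in NIH3T3.

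The first and second IPs share no library with the main comparison, so the 2-fold genes were also set against the V5 pair and the HA pair. Of the 162 genes higher in the input, 115 were at 50 CPM or more in a V5 IP, and 21 of those (18.3%) were at least 2-fold higher in the first than in the second V5 IP. Over all 2106 genes measured in both comparisons that share was 2.56%. Seen from the other list, the 21 genes were 38.9% of the 54 genes higher in the first V5 IP. Of the 390 measured genes that were lower in the input, 10 were 2-fold higher in the first V5 IP (2.56%) and 2 were lower (0.513%). These shares were near those over all 2106 genes, 2.56% and 0.807% (17 genes). Across all 2106 genes the 2 ratios were nearly unrelated (Spearman's rho −0.098, Pearson's r 0.063, across genes). In the HA pair mouse RNA is off target and shallow. There 32 of 126 measured higher genes (25.4%) were 2-fold higher in the first IP and 14 (11.1%) were lower. Of 429 measured lower genes, 134 (31.2%) were higher in the first HA IP and 18 (4.2%) were lower. Over all 2165 genes measured there the shares were 15.4% and 9.05%, and Spearman's rho of the 2 ratios was −0.271. Measured here means 50 CPM in either HA IP, about 7.93 counts in the first and 17.5 in the second. Of all mouse genes, 2780 reached it in the first and 2214 in the second. More genes thus entered only through the first HA IP, where they were high, and the part of this filter was not tested. The first and second IPs of each pair also differ in lysate and IP order, whose part in this was not tested.

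Median levels of the 2-fold genes in the IPs lay between those in the input and NIH3T3, while single genes, such as 3 of the 4 named ones, could lie outside them. The 162 higher genes had a median of 116 CPM in the input and 40.0 CPM in NIH3T3, as the choice requires, and 78.8 and 61.1 CPM in the V5 IPs. The 504 lower genes had a median of 35.5 CPM in the input and 111 CPM in NIH3T3, and 81.4 and 77.4 CPM in the V5 IPs. In the first and second HA IPs the medians were 82 and 62.8 CPM for the higher genes and 101 and 72.8 CPM for the lower genes. The genes were chosen for their distance between the input and NIH3T3, so intermediate medians in the other libraries are no separate finding.

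Mouse mitochondrial RNA was lower in the input than in NIH3T3. The mitochondrial genome encodes subunits of the respiratory chain together with the ribosomal and transfer RNAs for making them. Its genes took 1.97% of mouse counts in the input (14992 counts; 1.94 to 2.0%) and 2.97% in NIH3T3 (59271 counts; 2.94 to 2.99%), a ratio of 0.665 (0.654 to 0.677). The mitochondrial share was 2.22% and 2.02% in the HA IPs, close to the input, and 0.222% and 0.234% in the V5 IPs. Of the 37 mitochondrial genes in the files, 11 were at 50 CPM or more in either library, 8 of them below a log2 ratio of 0 and 3 above, with a median of −0.28. Relative to the median of all genes this was −0.11. Only 1 of the 11 genes (9.09%) passed 2-fold, against 26.9% of all genes. The 11 genes were abundant, with a median of 554 CPM in the input and 646 CPM in NIH3T3, and abundant genes passed less often. Of 168 genes with a mean of 500 to 1000 CPM, 10 were at least 2-fold higher (5.95%) and 12 were lower (7.14%).

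A mitochondrial gene of 1582 bases was the most abundant, with 6880 counts (9056 CPM) in the input and 30874 counts (15448 CPM) in NIH3T3, and was 1.71-fold lower in the input. It took 45.9% of the mitochondrial counts of the input and 52.1% of those of NIH3T3. Without it the mitochondrial share was 1.07% in the input and 1.42% in NIH3T3. A gene of 1144 bases was lower to a like extent, at 2090 against 3758 CPM (1.80-fold). A gene of 957 bases was at 5672 against 6869 CPM, 1.21-fold lower. At the other end, a gene of 519 bases on the minus strand was at 124 CPM in the input and 79.1 CPM in NIH3T3, a ratio of 1.57 (1.20 to 2.03). The 1 gene past 2-fold was 71 bases long and had 27 counts in the input and 391 in NIH3T3, 5.50-fold lower. Among the 15 mitochondrial genes of 100 bases or more, 6 had 5 counts or fewer in both libraries, so they were hardly counted at all in these files, and only 2 of the 22 shorter ones reached 50 CPM.

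Long genes were lower in the input. With genes ordered by exonic length into 10 classes of nearly equal size, the shortest class (67 to 903 bases) had a median log2 ratio of 0.05 and the longest (6563 to 25772 bases) of −0.91. Relative to the median of all genes, which does not depend on the scaling, these were 0.21 and −0.75. The share of genes at least 2-fold lower went from 7.26% in the shortest class to 46.4% in the longest, while the share at least 2-fold higher was 5.65% in both. Genes with 21 or more exon blocks had a median of −0.98 (43 of 89 lower, 7 higher), those with 2 to 5 blocks of 0.07 (85 of 818 lower, 60 higher), and nuclear genes of 1 block of 0.12 (25 of 209 lower, 24 higher). Long genes were also less abundant. Among genes with a mean of 100 to 500 CPM the medians lay closer together, at −0.03 for the shortest class and −0.50 for the longest. In that range 3 of 110 genes of the shortest class were 2-fold lower and 2 higher, and 24 of 64 of the longest were lower and 3 higher. With exonic length, Spearman's rho was −0.220 among the 786 genes with a mean of 200 CPM or more. The part of abundance in the pattern was not tested. Across genes, Spearman's rho of the ratio was −0.262 with exonic length, −0.271 with the number of exon blocks and −0.338 with the span of the gene on the chromosome.

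Genes in gene-rich stretches were higher in the input, and genes in sparse stretches lower. For each gene the annotated mouse genes within 500 kb of it on either side were counted, and genes were again put into 10 classes. In the class with the fewest neighbours (up to 16) the median log2 ratio was −0.77, and 103 of 248 genes were at least 2-fold lower and 4 higher. In the class with the most neighbours (71 to 135) the median was 0.49, and 12 of 248 were lower and 43 higher. Thus 41.5% of genes were lower by 2-fold where neighbours were few, against 4.84% where they were many. Where neighbours were few the median level in the input was 63.2 CPM, near the 50 CPM filter, which admits genes through NIH3T3 alone. The shares were not matched for abundance, and the part of the filter in them was not tested. Spearman's rho with the number of neighbours was 0.380 over all 2475 genes, 0.328 among the shorter and 0.417 among the longer genes, split at the median length. These measures were chosen after the ratios had been seen, and neighbouring genes are not independent points.

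The levels in all 6 libraries with mouse RNA were then compared for the end classes. In the class with the fewest neighbours the median level was 63.2 CPM in the input, and it was 106 CPM in NIH3T3, 101 and 92.6 CPM in the V5 IPs and 114 and 85.7 CPM in the HA IPs. In the class with the most neighbours it was 161 CPM in the input, 124 CPM in NIH3T3, 123 and 131 CPM in the V5 IPs and 114 and 103 CPM in the HA IPs. The longest genes had a median of 54.0 CPM in the input, 85.6 CPM in NIH3T3, 76.0 and 70.2 CPM in the V5 IPs and 107 and 74.2 CPM in the HA IPs. The shortest genes had a median of 138 CPM in the input, 141 CPM in NIH3T3, 149 and 173 CPM in the V5 IPs and 126 and 154 CPM in the HA IPs. The input was thus the outermost of the 6 libraries in 3 of these 4 classes, and lay among the others for the shortest genes. The classes were chosen after the ratios of the input over NIH3T3 had been seen. Genes were kept by their level in the input or NIH3T3, and levels in the IPs played no part in that choice.

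**Figure D4:**
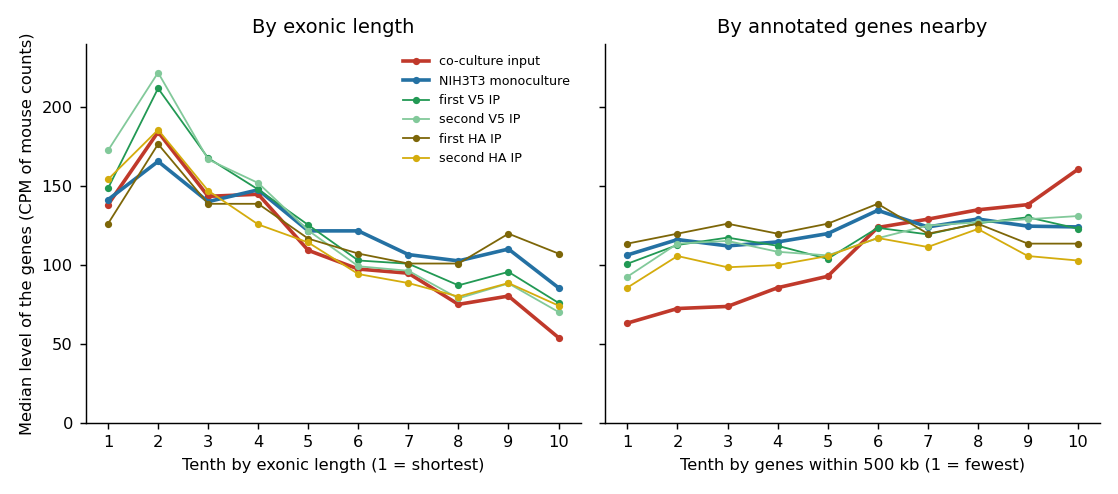
Median level of the mouse genes, in CPM of mouse counts, in 10 classes of the 2475 genes by exonic length (left) and by the number of annotated genes within 500 kb (right), 1 line per library. The input (red) is the lowest library for the longest genes (54.0 CPM) and for genes with the fewest neighbours (63.2 CPM), and the highest for genes with the most neighbours (161 CPM).

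Human genes of the same input library, set against the HEK293 monoculture, gave correlations of the same signs. Across 2558 human genes Spearman's rho of the log2 ratio was −0.254 with exonic length, −0.416 with gene span and 0.543 with the number of genes within 500 kb. For human genes the GC content of the longest reference transcript could be had, and rho with it was 0.766. GC content and the number of neighbours were correlated across these human genes (rho 0.632), and their parts were not separated here. The longest class of human genes had a median log2 ratio of −1.35 and the shortest of 0.25. These 2 comparisons share the input library, so the human values are no independent support for the mouse ones. GC content of the mouse genes was not analysed here, and its part in the mouse pattern was not tested. Between the first and second V5 IPs, which share no library with the main comparison, rho was 0.185 with exonic length and −0.092 with the number of neighbours. For mouse genes of the HA pair these were 0.341 and −0.155. The signs depend on which IP is taken as the first, so only the sizes can be set against those of the input over NIH3T3. For the input over NIH3T3, rho with exonic length was −0.262, smaller in size than in the HA pair and larger than in the V5 pair. With the number of neighbours it was 0.380, larger in size than in either pair.

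By chromosome the median log2 ratio of mouse genes ran from −0.54 on chromosome 13 (77 genes) to 0.18 on chromosome 19 (103 genes). Chromosomes 19, 17, 7 and 8 were 0.34, 0.29, 0.28 and 0.26 above the median of all genes. Chromosomes 13, X, 18 and 14 were at −0.38, −0.33, −0.29 and −0.29 relative to it. On chromosomes 14 and 18 no gene was 2-fold higher in the input, against 6.55% over all genes, but these chromosomes hold few genes. There 20 of 69 (29%) and 14 of 46 genes (30.4%) were 2-fold lower, against 20.4% over all genes. The share lower was alike on chromosomes 1 (32.1%) and 12 (31.9%). On chromosome 7, 22 of 215 genes were higher (10.2%, against 6.55% of all genes), and it took 12.9% of the mouse counts of the input against 10.6% of NIH3T3, 10.1% and 10.2% of the V5 IPs. Over the 20 nuclear chromosomes with genes in the comparison, the median ratio followed the median number of neighbours of their genes (Spearman's rho 0.856), and less closely the detected genes per Mb of the chromosome (0.765) and the annotated genes per Mb (0.302). With the median exonic length rho was −0.053. Chromosome 13 had the lowest median although the single-exon genes described above lie there. Chromosome Y, with 1570 annotated genes, had 6 counts in the input and 12 in NIH3T3.

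**Figure D5:**
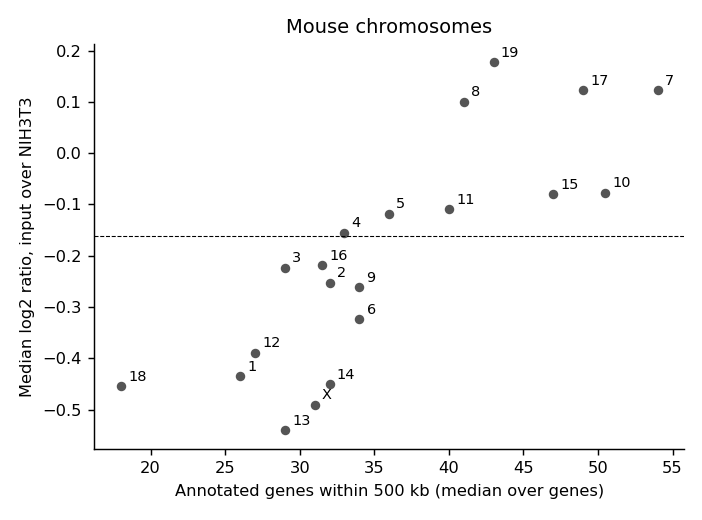
Median log2 ratio of the input over NIH3T3 for the mouse genes of each nuclear chromosome (y axis) against the median number of annotated genes within 500 kb of those genes (x axis), 1 labelled point per chromosome; the dashed line is the median of all genes, −0.16. Chromosomes 7, 8, 17 and 19 lie highest, and 13, X, 18 and 14 lowest.

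Abundant genes differed least. Of 168 genes with a mean of 1000 CPM or more, 6 were at least 2-fold higher in the input (3.57%) and 9 were lower (5.36%). Of 334 genes with a mean under 50 CPM, 41 were higher (12.3%) and 144 were lower (43.1%). Genes of that lowest class passed the filter only through the library in which they were high, so a difference was built into it. The mouse RNA of the input was also somewhat more concentrated. Its 100 most abundant genes took 45.7% of mouse counts, against 41.4% for those of NIH3T3. In the V5 IPs the share was 39.4% and 40.1%. In the HA IPs it was 39.1% and 43.1%, so the first and second HA IPs also differed from each other.

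Few counts of the HEK293 monoculture lay on mouse genes. The HEK293 monoculture put 108 of its 826781 counts on 57 mouse genes, with at most 12 on any of them. If these were human reads, the 280163 human counts of the input would at that rate bring about 36.6 counts to mouse genes in all. Whether these were human reads was not tested. Only 21 of the 2475 genes had any HEK293 count, and 4 of these were among the 666 past 2-fold. Exons of other genes covered over 20% of the exonic bases of 181 of the 2475 genes, including 16 of the higher and 25 of the lower genes, and counts of those are uncertain.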

How the data were processed

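RNA was measured in 7 libraries, made with SMART-seq cDNA and Nextera DNA Flex per the labels' protocols. The deposited values are whole-number counts per gene; per the file headers the authors made them with featureCounts 1.5.2, counting read pairs on exons summed to genes of both species, with the strand setting at 0 (unstranded). STAR 2.5.2, Trim Galore, bcl2fastq, SAMtools and hg38 stand in the submitters' processing notes, which name no mouse build. None of the 54752 mouse identifiers matched a symbol, so the mouse gene lists drawn up for this work were not used.

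From the counts, CPM of mouse counts and log2 ratios with a prior count of 2 (scaled to library size) were computed for genes at 50 CPM or more in either library, with 2-fold as the threshold. Intervals of shares and ratios are exact Clopper-Pearson 95% intervals. The rule for named genes took the 2 identifiers per direction with the largest log2 ratio. Exon blocks are merged exons of a gene. Human GC content came from GENCODE transcripts. Computation used pandas 2.3.3 and numpy 2.4.6 under Python 3.11.15, intervals scipy 1.17.1, and plots matplotlib 3.10.9. R 4.3.3 with edgeR 4.0.16 (TMM) and DESeq2 1.42.0 (size factors) gave alternative scalings only. The ratio and filter were tested on simulated data. Other priors, filters, folds, thinning and left-out genes were tried. The members and lists were chosen with earlier results of these data known.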

Additional observations from a re-analysis of the deposited data

Results flagged for a closer look

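The HEK293 monoculture, which should hold no mouse RNA and enters no comparison of mouse genes, had 108 counts on mouse genes, above the 3 counts taken as the limit for a count of 0. They lay on 57 genes, 21 of them among the 2475 compared.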

How the results depend on the processing

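Each group is 1 library, so no setting stands in for replicates. No paired analysis was possible because both groups compared have 1 sample. Scaling moved the split: 162 genes were higher and 504 lower with total mouse counts, 265 and 412 with TMM factors and 267 and 410 with DESeq2-type size factors, and the median ratio of −0.16 became −0.0049 and 0. The count of 666 genes past 2-fold moved with the filter, to 1303 (301 higher, 1002 lower) at 20 CPM, 179 (54 and 125) at 200 CPM and 4719 (1162 and 3557) without one. It was 1294 (482 and 812) at a fold of 1.5 and 147 (24 and 123) at a fold of 4. Without genes that have fewer neighbours than the median, a setting added after seeing the data, it was 269, with 128 higher and 141 lower, a further move of the split; here 1267 genes were tested in place of 2475. Leaving genes with HEK293 counts out of the denominator gave mitochondrial shares of 2.01% and 3.01%. The other counts stayed within 1.5 times, with 574 of the 666 genes also past 2-fold under TMM. No named gene changed direction; with a prior count of 10, ENSMUSG00000060678.5 was at 2.82 in place of 4.10 and ENSMUSG00000054823.16 at −2.77 in place of −4.25. Relative to all genes, the longest class of genes stayed between −0.80 and −0.69 and the class with the most neighbours between 0.62 and 0.65. Depth limits the input, where 50 CPM is 38 counts.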
